A study of Mus musculus with 2 samples.

Results

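The 4 mouse genes Mir192, Mir194-1, Mir194-2 and Mir215 encode miR-192, miR-194 and miR-215, which are used as markers of glandular gastrointestinal epithelium. They were chosen by gene symbol, and all 4 were found among the 1973 miRNA genes measured. A miRNA is a short RNA cut from a hairpin precursor, and its seed, bases 2 to 8 counted from the 5′ end, sets which messenger RNAs it pairs with. The libraries hold RNA shorter than 30 nucleotides from the whole stomach of newborn (postnatal day 0) B6NCrl mice, 1 library from pup 1 and 1 from pup 2, born to 1 dam. No treatment or mutation is given, and sex was not collected. The libraries therefore form 1 group with no contrast between conditions, and differences between them compare these libraries only.

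In adult mammals these miRNAs are abundant in the epithelium of the intestine and also in liver and kidney, while the mouse stomach has a squamous forestomach beside its glandular part. Each of the 2 clusters carries 1 gene of miR-194 and 1 gene of the related miR-192 or miR-215. In human cell lines the tumour suppressor p53 raises all 3 miRNAs. In whole tissue, fewer cells of a type and less RNA per cell cannot be told apart, and the files do not tell which cells the reads came from.

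The mature sequences are shown because they decide which genes share a seed and which reads can be told apart. All 4 genes matched the RefSeq table (GRCm38.p6), from which the sequences below were taken, 5′ to 3′, with the seed in capitals. The first is cut from Mir192, the second from Mir215 and the third from both Mir194-1 and Mir194-2, while the last pair are the opposite arms of the miR-194 hairpins.
mmu-miR-192-5p: cUGACCUAugaauugacagcc
mmu-miR-215-5p: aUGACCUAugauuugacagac
mmu-miR-194-5p: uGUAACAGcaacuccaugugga
mmu-miR-194-1-3p: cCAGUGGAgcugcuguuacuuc
mmu-miR-194-2-3p: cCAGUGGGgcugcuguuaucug

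miR-192-5p and miR-215-5p shared the seed UGACCUA, which no other of the 1679 mature names in the table carried. They were identical at 18 of 21 positions. The differences, with the base of miR-192-5p first and positions counted from the 5′ end, were C1A, A12U and C20A, all outside the seed. The longest stretch common to the hairpins of Mir192 and Mir215 was 10 nt, so a read of either full mature sequence matches 1 of these hairpins exactly. Nor did either gene have 20 nt or more in common with any other annotated miRNA hairpin.

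miR-194-5p was different, because Mir194-1 and Mir194-2 both encode it. Their hairpins are printed to show this, with the shared stretch in capitals.
Mir194-1: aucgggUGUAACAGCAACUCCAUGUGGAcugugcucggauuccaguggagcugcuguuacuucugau
Mir194-2: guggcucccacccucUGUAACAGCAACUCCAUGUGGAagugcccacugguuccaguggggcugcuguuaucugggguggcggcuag

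The stretch of 22 nt is the mature miR-194-5p itself, and the hairpins part at the next base on each side. On the 5′ side the base is G in Mir194-1 and C in Mir194-2, and on the 3′ side it is C in Mir194-1 and A in Mir194-2. A read that lies wholly within the stretch matches both hairpins. The tables have a row named for reads that map to several places, which took 26.0% of the reads listed for pup 1 and 25.7% of those for pup 2. The counter is not named in the sources used here, so it is an inference from this row that such reads are not also in the gene counts. Of 209 genes whose whole annotated hairpin is identical to another, 208 had no count in either library, against 1320 of all 1973 genes. Genes that are not expressed would also be at 0. If reads of miR-194-5p are in that row, the counts of Mir194-1 and Mir194-2 understate miR-194, by an amount that cannot be read from the tables. The 3p arms differed at 4 of 22 positions (A8G, C19U, U20C and C22G, with the base of miR-194-1-3p first), so their reads can be told apart between these hairpins. A8G lies in the seed. With it miR-194-2-3p shared its seed with miR-6926-5p and miR-7055-5p, whereas no other mature name had the seed of miR-194-1-3p. The tables give 1 count per gene, so reads of the 5p and 3p arms are summed.

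The genes lie as 2 clusters on GRCm38, each with the miR-194 gene first in the direction of transcription. Mir194-1 (ENSMUSG00000065581.1) occupies 185313319 to 185313385 on the plus strand of chromosome 1, and Mir215 (ENSMUSG00000065562.1) follows at 185313581 to 185313692, with 195 bp between them. Both lie within the noncoding gene 2010103J01Rik, Mir194-1 in an intron and Mir215 over an exon. On the opposite strand lies an intron of Iars2, which encodes the mitochondrial isoleucyl-tRNA synthetase. Mir194-2 (ENSMUSG00000065582.1) occupies 6264643 to 6264728 on the plus strand of chromosome 19, and Mir192 (ENSMUSG00000065523.1) follows at 6264844 to 6264932, with 115 bp between them. Neither has an annotated host. The nearest gene other than miRNA is Atg2a, an autophagy gene on the same strand, which ends 2308 bp before Mir194-2.

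Own-strand reads of all miRNA genes totalled 4463355 in pup 1 and 3454655 in pup 2. Levels are given as own-strand counts per 1000000 such counts (CPM). A miRNA read spans the whole mature molecule, so levels were not divided by hairpin length. A count of 0 would allow up to 0.672 CPM in pup 1 and 0.868 CPM in pup 2 (3 counts). A gene counted as detected with 10 or more counts in both libraries, which 305 genes reached, all 4 members among them. No molecular identifiers are given, so PCR copies cannot be told from separate molecules, and intervals and limits cover counting error only. The tables are not copies of each other, as their counts over detected genes differed beyond counting noise (chi-square 18619, 304 degrees of freedom).

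All 4 genes were expressed in both stomachs, and by counted reads the miR-192 and miR-215 genes stood well above the miR-194 genes. Reads of the mature miRNA that both miR-194 genes encode may be missing from their counts, which was not tested. The size of this gap, and the levels and ranks of the miR-194 genes, therefore hold for counted reads only. Mir215 had 18505 counts in pup 1 and 11923 in pup 2. This is 4146 CPM (exact Poisson 95% interval 4086 to 4206) in pup 1 and 3451 CPM (3390 to 3514) in pup 2, a mean of 3799 ± 491 CPM (SD, n = 2). It was the highest of the 4 in each pup and the 37th most abundant of the 305 detected genes by mean. Mir192 had 12426 counts in pup 1 and 8979 in pup 2, at 2784 CPM (2735 to 2833) and 2599 CPM (2546 to 2653). Its mean of 2692 ± 131 CPM had the smallest SD relative to the mean of the 4, and its rank was 48.

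Mir194-2 had 3481 counts in pup 1 and 3752 in pup 2, although the library of pup 2 was the smaller. Its level was 780 CPM (754 to 806) in pup 1 and 1086 CPM (1052 to 1121) in pup 2, with a mean of 933 ± 216 CPM and rank 87. Mir194-1 was the lowest of the 4 in both pups, with 1988 counts in pup 1 and 1908 in pup 2. Its level was 445 CPM (426 to 465) in pup 1 and 552 CPM (528 to 578) in pup 2, with a mean of 499 ± 75.6 CPM and rank 110. The counting intervals of the pups did not overlap for any of the 4 genes, nor for 43.3% of the 305 detected genes. The genes of miR-192 and miR-215 were higher by value in pup 1 and both genes of miR-194 in pup 2. Reads opposite to the members were all but absent, at 1 count opposite to Mir194-1 in pup 2 and 0 otherwise.

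**Figure D1:**
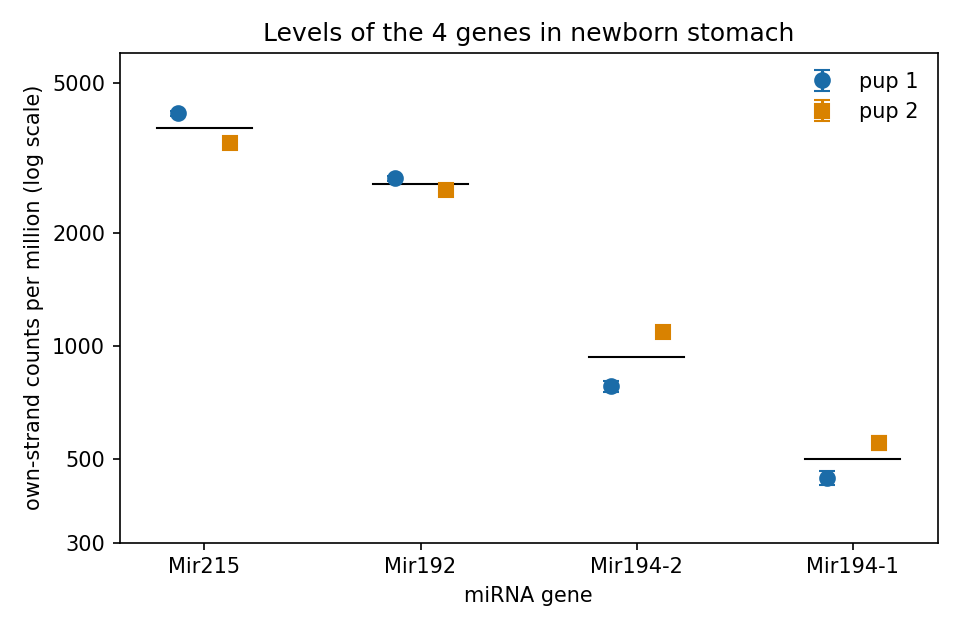
Own-strand CPM (log scale) of the 4 genes, with pup 1 as circles, pup 2 as squares, exact Poisson 95% intervals as bars where they exceed the symbol, and the mean as a line. The order Mir215, Mir192, Mir194-2, Mir194-1 is the same in both pups, with Mir215 and Mir192 higher in pup 1 and both miR-194 genes higher in pup 2. The counts of the miR-194 genes may lack reads of the mature miRNA that both encode.

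The order by counted reads was the same in both pups, and each step in it was larger than its SD. Mir215 exceeded Mir192 by 0.49 ± 0.12 on the log2 scale, Mir192 exceeded Mir194-2 by 1.55 ± 0.41, and Mir194-2 exceeded Mir194-1 by 0.89 ± 0.12 (mean and SD of the ratios within each library, n = 2). An exact permutation test over 2 libraries cannot reach a p below 0.5, so the SD is the only yardstick here. Mir215 made up 50.8% of the counts of the 4 genes in pup 1 and 44.9% in pup 2, while Mir192 made up 34.1% and 33.8%. Mir194-2 made up 9.56% in pup 1 and 14.1% in pup 2, and Mir194-1 made up 5.46% and 7.18%.

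Among all detected genes the members had close neighbours in level. Mir182, of a cluster known from sensory and neuroendocrine cells, came directly above Mir215 at 3816 ± 958 CPM, and Mir487b, of the imprinted Dlk1-Dio3 region, directly below at 3668 ± 317 CPM. Neither differed from Mir215 by more than the larger SD of the pair. Mir151 (2880 ± 242 CPM), directly above Mir192, did not differ beyond that spread either, whereas Mir181c (2474 ± 47.7 CPM), directly below, did. Mir92-1 and Mir154, on either side of Mir194-2, and Mir676 and Mir433, on either side of Mir194-1, lay within the spread of the members.

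**Figure D2:**
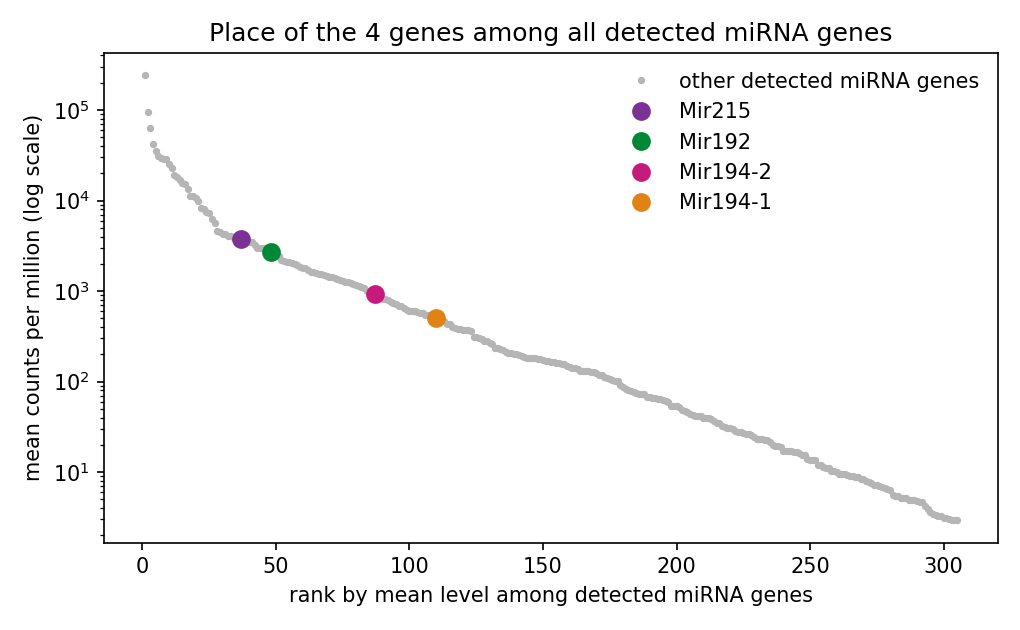
Mean CPM (log scale) of the 305 detected miRNA genes against their rank, with the 4 genes as large coloured points and the others in grey. Mir215 (rank 37) and Mir192 (rank 48) lie in the upper part of the curve, and Mir194-2 (rank 87) and Mir194-1 (rank 110) further along it. Ranks are by counted reads, which may lack those of the mature miRNA that both miR-194 genes encode.

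Partners of 1 cluster differed more in counts than genes of the same miRNA family did. On chromosome 1, Mir215 exceeded its partner Mir194-1 9.31-fold in pup 1 (exact binomial 95% interval 8.89 to 9.75) and 6.25-fold in pup 2 (5.95 to 6.56). On chromosome 19, Mir192 exceeded its partner Mir194-2 3.57-fold in pup 1 (3.44 to 3.71) and 2.39-fold in pup 2 (2.30 to 2.49). Across the clusters, Mir215 exceeded Mir192 1.49-fold in pup 1 (1.46 to 1.52) and 1.33-fold in pup 2 (1.29 to 1.36). This gap was narrow, between genes whose 5p arms share a seed. Mir194-2 exceeded Mir194-1 1.75-fold in pup 1 (1.66 to 1.85) and 1.97-fold in pup 2 (1.86 to 2.08). The higher miR-194 gene thus lay in the cluster with the lower partner. Reads of the shared miR-194-5p may be missing from both miR-194 genes, which was not tested, and every ratio with a miR-194 gene could then be off.

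The clusters as wholes were close. The chromosome 1 pair held 20493 counts in pup 1 and 13831 in pup 2, against 15907 and 12731 for the chromosome 19 pair. The ratio was 1.29 in pup 1 (1.26 to 1.32) and 1.09 in pup 2 (1.06 to 1.11), or 0.24 ± 0.17 on the log2 scale. Genes were also grouped by the seed of the 5p arm, although the counts sum both arms and the 3p seeds differ within each group. Mir192 and Mir215 together exceeded Mir194-1 and Mir194-2 together 5.66-fold in pup 1 (5.50 to 5.82). In pup 2 they did so 3.69-fold (3.59 to 3.80). This grouping was chosen after the values were seen.

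**Figure D3:**
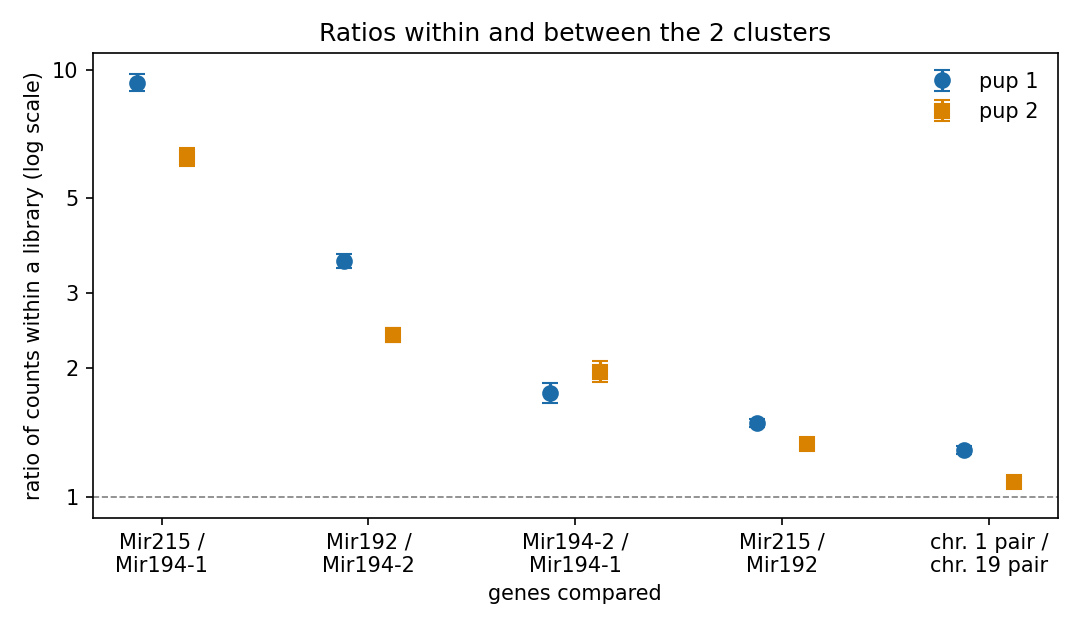
Ratio of own-strand counts within each library (log scale) for the partners of each cluster, for genes of the same miRNA family and for the cluster sums, with pup 1 as circles, pup 2 as squares and exact binomial 95% intervals as bars. The ratios of the cluster partners, 9.31 and 3.57 in pup 1, were 6.25 and 2.39 in pup 2, while the chromosome 1 to chromosome 19 ratio was 1.29 in pup 1 and 1.09 in pup 2.

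Such ratios were set beside those of other neighbouring miRNA genes, taken as adjacent genes on the same strand with starts within 10 kb, both detected. There were 85 such pairs, some of which share a gene. In the order from the largest ratio down, Mir215 over Mir194-1 ranked 39 and Mir192 over Mir194-2 ranked 58, while the other 83 pairs had a median of 5.69-fold. Mir215 over Mir194-1 stood between Mir23b over Mir27b and Mir351 over Mir503, and Mir192 over Mir194-2 stood between Mir410 over Mir3072 and Mir182 over Mir96.

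The partner ratios of both clusters differed between the pups by nearly the same factor. Mir192 over Mir194-2 was 1.49 times higher in pup 1 than in pup 2 (exact conditional 95% interval 1.41 to 1.57), and Mir215 over Mir194-1 was also 1.49 times higher (1.39 to 1.59). On the log2 scale the differences were 0.58 and 0.57, and they came from opposite directions of the partners in each cluster. Among the other 83 neighbouring pairs the median size of such a difference was 0.20, and 10 pairs differed by at least as much as the member pairs did. The ratio of the miR-194 genes to each other moved the other way, at 0.890 times its pup 2 value in pup 1 (0.823 to 0.963). These intervals cover counting error only, and 1 library per pup leaves no measure of the spread within a pup.

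**Figure D4:**
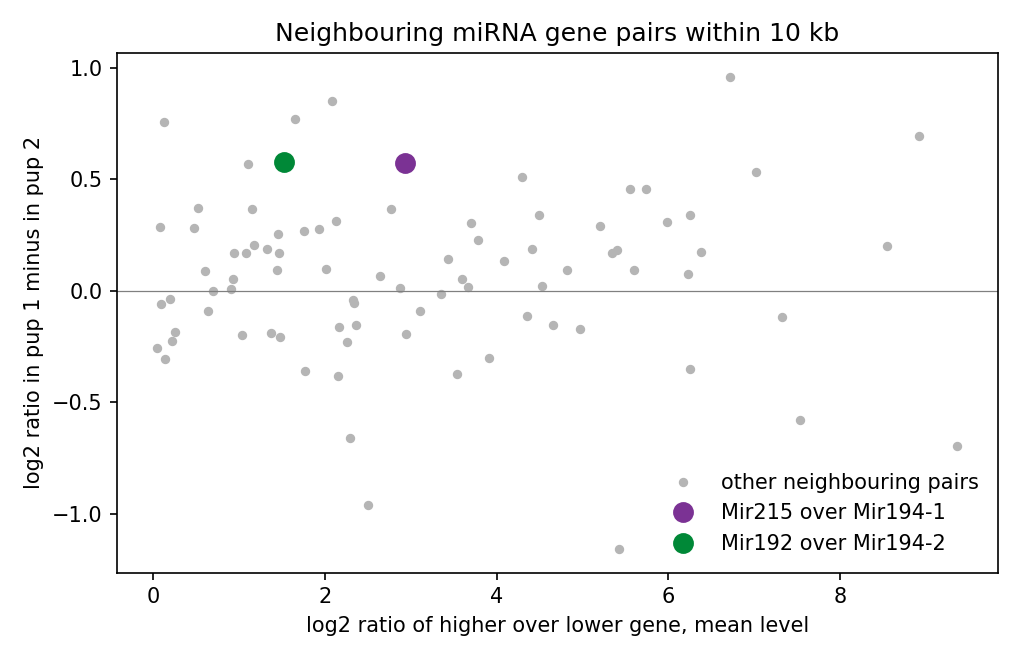
Neighbouring miRNA gene pairs within 10 kb, with the log2 ratio of the higher over the lower gene on the x axis and its difference between the libraries (pup 1 minus pup 2) on the y axis. The coloured points, the partners of the 2 clusters, lie at 0.58 and 0.57 on the y axis, against a median size of 0.20 in the 83 other pairs.

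For the pups themselves, each gene was tested with a two-sided exact binomial test against edgeR's TMM library sizes, with Benjamini-Hochberg adjustment over the 305 detected genes. To be called, a gene had to differ 1.5-fold or more with an adjusted p below 0.05. Of the 4 members 0 were called, against 9 of 305 detected genes (2.95%), of which 2 were higher in pup 1 and 7 in pup 2. Without the minimum ratio, all 4 members had an adjusted and an unadjusted p under 0.05, as did 52.1% of detected genes by adjusted p, so at this depth the counting test passes small ratios widely.

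Mir215 had a log2 ratio of pup 1 over pup 2 of 0.37 (95% interval 0.33 to 0.40; adjusted p = 1.3e-104, exact binomial test), which is 1.29-fold. Mir192 had 0.20 (0.16 to 0.24; adjusted p = 2.5e-23, same exact test). Both genes of miR-194 lay below 0, Mir194-2 at -0.37 (-0.44 to -0.31; adjusted p = 2.2e-27, exact) and Mir194-1 at -0.21 (-0.30 to -0.12; adjusted p = 2.7e-05, exact). The median size of this ratio over detected genes was 0.17, and 47 genes, Mir194-2 among them, had one at least as large as that of Mir194-2. Taking the common dispersion of edgeR as the error instead, a coefficient of variation of 11.4% estimated from the same libraries, 0 members passed an adjusted p of 0.05 (0.96 for each) and 0 had an unadjusted p under 0.05. Since that dispersion includes the differences being tested, these p-values do not show that the members were alike in the pups.

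Detected genes with 20 nt or more in common with another hairpin, 70 genes with both miR-194 genes among them, had a median log2 ratio of -0.08. The 235 detected genes without such a stretch had a median of 0.0014. By value, 61.4% of the sharing genes and 49.8% of the others were lower in pup 1. The part of this in the lower scaled levels of the miR-194 genes in pup 1 was not tested.

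**Figure D5:**
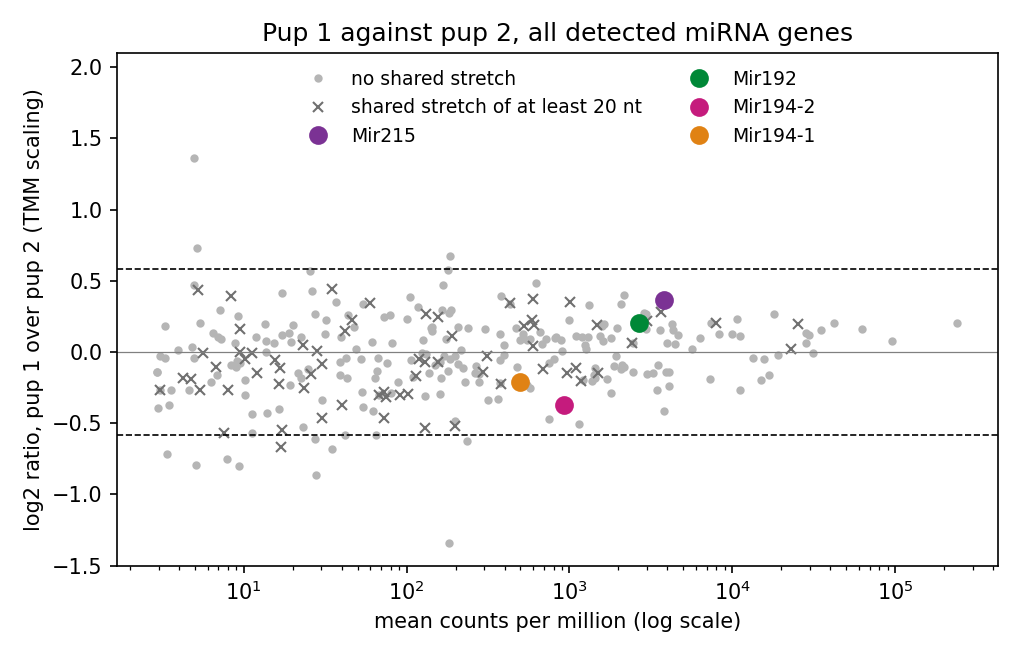
Log2 ratio of pup 1 over pup 2 after TMM scaling against mean CPM (log scale) for the 305 detected genes, with crosses for genes with 20 nt or more in common with another hairpin and dashed lines at a ratio of 1.5 each way. Mir215 (0.37) and Mir192 (0.20) lie above 0, Mir194-1 (-0.21) and Mir194-2 (-0.37) below, and all 4 between the dashed lines.

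The 4 genes together held 0.816% of own-strand counts in pup 1 (exact binomial 95% interval 0.807% to 0.824%) and 0.769% in pup 2 (0.760% to 0.778%), a mean of 0.792% ± 0.0330 (SD, n = 2). The miR-200 family of general epithelial markers, with 5 of 5 members detected, exceeded them 7.50-fold in pup 1 (7.41 to 7.58) and 8.59-fold in pup 2 (8.48 to 8.70), a geometric mean of 8.02-fold. Endocrine genes, Mir375 of islet and gut endocrine cells with the miR-7 genes, held 0.788% ± 0.0297. This share differed from that of the 4 members by less than either SD. The closeness rests on the counts of the miR-194 genes, which may lack reads of miR-194-5p. Without Mir194-1 and Mir194-2 in list and total, Mir192 and Mir215 held 0.650% ± 0.0621. That was below the endocrine share by more than either SD. Mir375 alone, at 7681 CPM in pup 1 and 7154 CPM in pup 2, lay above each of the 4 members. The miR-7 genes of that list, Mir7b, Mir7-1 and Mir7-2, lay below each member in both pups. The highest of them was Mir7b, at 334 CPM in pup 1 and 418 CPM in pup 2. Larger shares went to the squamous forestomach markers Mir203, Mir205 and Mir31, with 11.4% ± 0.349. The smooth muscle markers Mir143 and Mir145a held 24.8% ± 1.21.

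The marker of liver, which also expresses these miRNAs, and those of the acinar pancreas, which lies next to the stomach, were lower than each member. No separate marker list for kidney or intestine was used. Mir122, which defines hepatocytes, had 916 counts in pup 1 and 881 in pup 2, and the 4 members together exceeded it 39.7-fold in pup 1 (37.2 to 42.5) and 30.1-fold in pup 2 (28.2 to 32.3). Mir122 was lower by value in pup 1, at 205 CPM against 255 CPM in pup 2, as were both miR-194 genes but not Mir192 or Mir215. Its part in their counts was not tested. Of the 3 pancreatic acinar genes 0 were detected, and together Mir216a, Mir216b and Mir217 had 12 counts in pup 1 and 9 in pup 2. The p53-responsive miR-34 genes had 3 of 3 members detected. Of these 0 were called between the pups, against 9 of 305 detected genes (2.95%), a share too small for 3 genes to differ from. Mir34a, the highest of them, stood at 486 CPM in pup 1 and 611 CPM in pup 2, near the level of Mir194-1.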

How the data were processed

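MicroRNA sequencing was done on 2 newborn stomachs, per the labels' descriptions. The deposited tables hold raw read counts per miRNA gene, without regard to strand and for each strand, and the accompanying description files name mm10 and annotation M4. Aligner, counter and adapter trimming: not given in the sources used here. The strand column with the larger total was used (97.7% and 97.8% of gene counts in pups 1 and 2), without the rows that name no gene. Unmapped reads were 8.70% and 8.94% of the tables, and reads outside annotated miRNA genes 1.78% and 1.70%.

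Identifiers were joined without version to GENCODE M21 on GRCm38 (1894 of 1973 matched). Own-strand totals, which give the depth, were 4463355 and 3454655. TMM factors and the common dispersion came from edgeR 4.0.16 (R 4.3.3), alternative size factors from DESeq2 1.42.0, and exact tests and intervals from scipy 1.17.1 (Python 3.11.15, numpy 2.4.6, pandas 2.3.3, matplotlib 3.10.9). The binomial test was checked on simulated counts with counting noise only. That check does not cover the larger differences found between these libraries. Genes named are the members, their neighbours in level, the marker lists, and the pairs next to the member pairs. Members and lists were chosen with earlier results of these data known.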

Additional observations from a re-analysis of the deposited data

How the results depend on the processing

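The calls of the members and the sign of each member's pup ratio were kept under every alternative tried for them. These were counts of both strands, other scalings, no detection minimum and edgeR's dispersion. The last keeps the TMM scaling and so the members' log2 ratios, and it could change neither a sign nor a call of theirs. The ratios within and between the clusters kept their direction with counts of both strands and in either library alone. Their size was not put to a real test. With 2 libraries, leaving 1 out always stays within the SD, and reads on the opposite strand were all but absent. The members' log2 ratios of pup 1 over pup 2 ranged from 0.26 to 0.39 for Mir215, 0.10 to 0.23 for Mir192, -0.48 to -0.35 for Mir194-2 and -0.31 to -0.18 for Mir194-1. Scaling by total counts put the median detected gene at -0.13, against -0.02 with TMM. The share of the 4 genes was 0.492% of all reads in the tables, and 0.650% without Mir194-1 and Mir194-2 in list and total. Without sequence-sharing genes the miR-200 family exceeded the list by 3.29 on the log2 scale, and the list exceeded Mir122 by 4.82. Genes called between the pups numbered 16 by total counts (1 higher in pup 1, 15 in pup 2), 10 with DESeq2 size factors (4 and 6), 9 with no detection minimum (4 and 5), 1 with edgeR's dispersion and 2 at a call ratio of 2; the cause was not tested. Counted from the top, the ratio of the Mir192 pair stood at 67.1% to 74.1% of neighbouring pairs with either library left out, and that of the Mir215 pair at 37.9% when the other pairs had no sequence-sharing gene. No paired analysis was possible because the libraries form a single group. Depth does not limit the detection of the members, but reads of miR-194-5p that match both hairpins may be outside the counts.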
